A study of Solanum lycopersicum with 26 samples.

Results

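The phytochrome-interacting factors (PIFs) of tomato were followed in the 2 tissues of the mature seed. Their 8 genes were taken from the count table by gene identifier alone, out of 33976 identifiers: PIF1a (Solyc09g063010), PIF1b (Solyc06g008030), PIF3 (Solyc01g102300), PIF4 (Solyc07g043580), PIF7a (Solyc03g115540), PIF7b (Solyc06g069600), PIF8a (Solyc01g090790) and PIF8b (Solyc10g018510). The identifiers place PIF3 and PIF8a on chromosome 1, PIF7a on chromosome 3, PIF1b and PIF7b on chromosome 6, PIF4 on chromosome 7, PIF1a on chromosome 9 and PIF8b on chromosome 10.

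PIFs are basic helix-loop-helix transcription factors that bind the light-activated form of phytochrome, the receptor of red and far-red light. Binding leads to phosphorylation of the PIF and, for most of them, to its breakdown, so that the amount of protein is set by light after translation as well as by the amount of transcript. In Arabidopsis, PIF1 holds back seed germination in the dark through gibberellin and abscisic acid genes, and PIF4 and PIF7 drive growth in warmth or shade. Phytochrome is also warm-sensitive, since its active form reverts to the inactive one faster as temperature rises.

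All seeds were of cv. Moneymaker, 70 days after flowering, from fruits that were picked at the breaker stage (63 days), when colour first appears, and that ripened off the plant in a growth chamber for 7 days. The standard condition, ST_HL, had days of 23 °C and nights of 20 °C, with 300 µE of light for 16 h. ST_DL had the same temperatures with dim light of 25 µE, HT_HL had 32 °C and 26 °C with 300 µE, and HT_DL had the high temperatures with 25 µE. Embryo and endosperm were dissected by hand from 10 seeds a replicate, which gave 14 embryo libraries (4 each in ST_HL and HT_DL, 3 each in ST_DL and HT_HL) and 12 endosperm libraries (3 per condition), with 20450644 to 21519318 counts each. Seeds of a replicate came from 2 fruits, and nothing says that replicates came from separate plants, so the p-values measure the spread between these samples only.

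Levels are given as CPM, counts scaled to a common library size after TMM normalization, and differences as log2 fold changes ± SE of the first-named condition over the second. The tests were edgeR quasi-likelihood F-tests with Benjamini-Hochberg adjustment over all genes tested. A gene "passed the test" at an adjusted p below 0.05, and a differentially expressed gene (DEG) also had an absolute log2 fold change above 1. CPM is not corrected for gene length, so levels were compared within a gene and not between genes. In whole tissue, fewer cells of a type and less of a transcript per cell cannot be told apart.

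Embryo replicates 2 and 3 of ST_HL and of HT_DL stood apart from the other 10 embryo libraries. On the first principal component, which held 63.7% of the embryo variance, these 4 libraries lay at 118 to 125 and the others between -65.4 and -25.7. The labels name no batch that they share, and the cause was not tested. The embryo results of the PIF genes are therefore also given without them. Libraries of the same tissue correlated at 0.906 to 0.991 and libraries of different tissues at 0.745 to 0.854. The endosperm markers were 2 genes of endo-beta-mannanase, an enzyme of the endosperm cell wall, from the part of the study's GO annotation used here. They had 0 counts in every embryo library and at most 2 in an endosperm library, so they did not serve to check the dissection.

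Transcripts of 6 of the 8 PIF genes were detected. PIF1a, PIF1b, PIF3, PIF4 and PIF8a had counts in all 26 libraries, from 89 counts (PIF8a, embryo) to 3721 (PIF1a, embryo). PIF8b had 61 to 252 counts in each embryo library and 0 to 2 in each endosperm library. PIF7a and PIF7b, homologues of a PIF that acts in shade and warmth in Arabidopsis, had 0 counts in all 26 libraries. With a limit of 3 counts, this allows at most 0.164 CPM per library for each of them, which covers counting error only. The low-count filter therefore kept 6 members in the embryo and 5 in the endosperm.

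**Figure D1:**
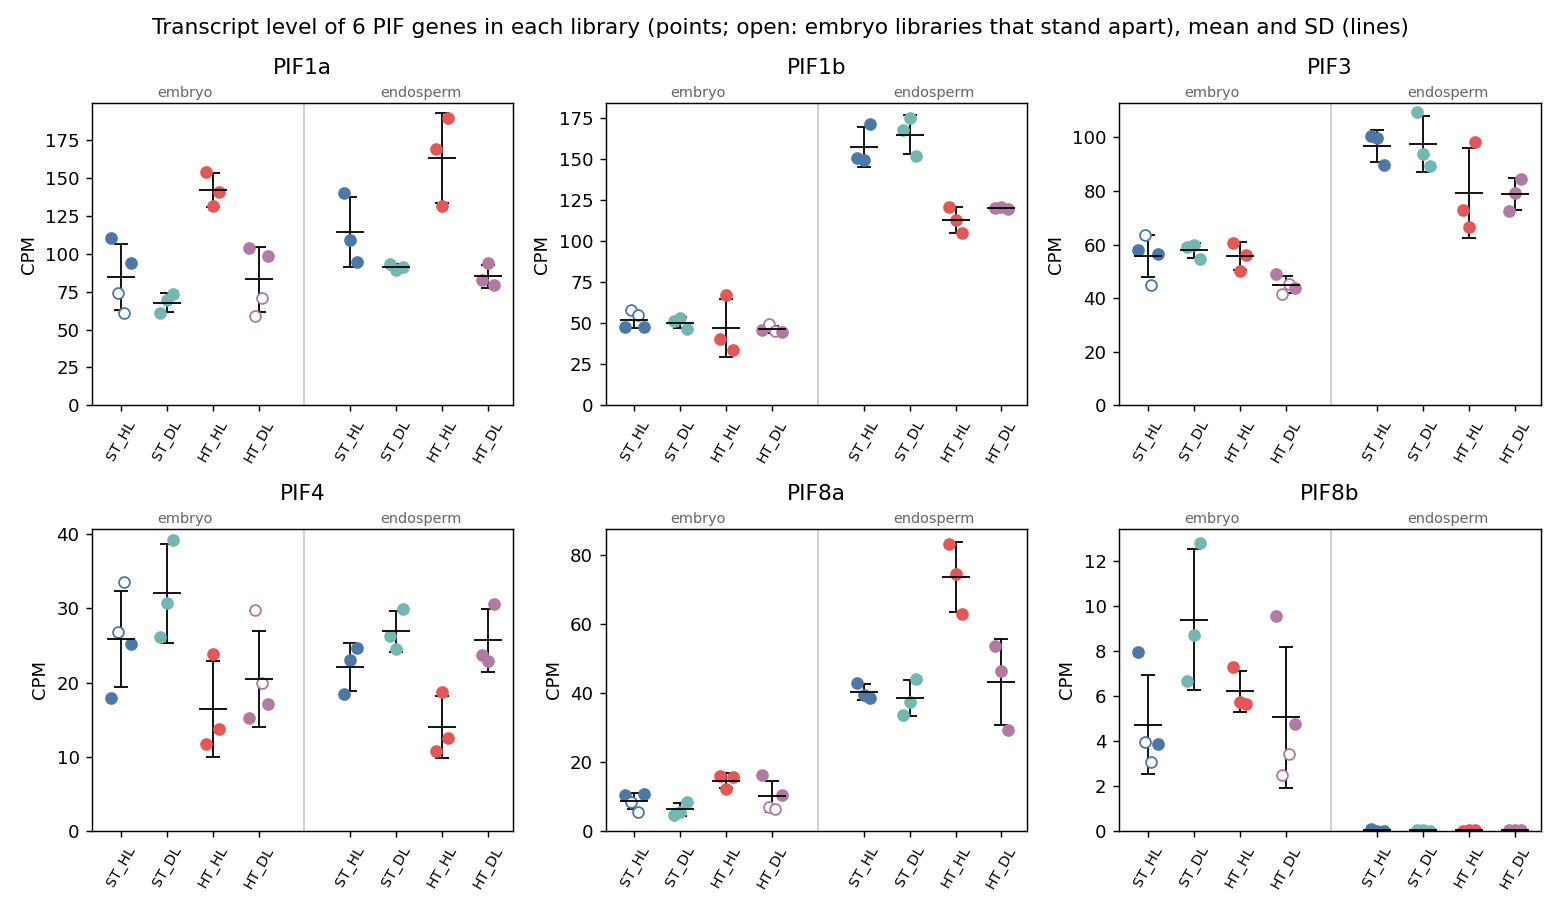
Each panel plots 1 PIF gene, with CPM on a linear axis from 0 against tissue and condition. Points are libraries, open points are the 4 embryo libraries that stood apart, and lines give the mean and SD of 3 or 4 libraries. PIF1a was highest in HT_HL in both tissues, PIF1b, PIF3 and PIF8a were higher in endosperm than in embryo, and PIF8b was near 0 in the endosperm.

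Within a tissue no PIF gene was a DEG in any comparison, since none of the log2 fold changes that passed the test exceeded 1 in size. The changes that passed were between 1.37-fold and 1.94-fold, and all but that of PIF1b between HT_DL and ST_DL involved HT_HL. With heat in high light (HT_HL against ST_HL), 1 of 6 tested members passed in the embryo, against 17.8% of all tested genes, and 4 of 5 in the endosperm, against 23.8%. DEGs of that comparison made up 4.84% of all embryo genes and 5.85% of all endosperm genes. With dim light under heat (HT_DL against HT_HL), 1 of 6 passed in the embryo, against 14.6% of all genes, and 3 of 5 in the endosperm, against 24.7%. DEGs made up 3.85% and 5.93% of all genes there. With heat in dim light (HT_DL against ST_DL), 0 of 6 passed in the embryo, against 4.44% of all genes, and 1 of 5 in the endosperm, against 12.6% of all genes and 4.01% that were DEGs.

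These shares of all genes rested in part on single libraries. Without HT_HL replicate 1, the number of embryo genes that passed went from 3418 to 781 in HT_HL against ST_HL and from 2810 to 474 in HT_DL against HT_HL, and the number of endosperm genes from 4564 to 2315 and from 4731 to 2467.

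No member passed in the other comparisons of conditions. With ST_DL against ST_HL the count was 0 of 6 in the embryo, against 2.03% of all genes, and 0 of 5 in the endosperm, against 3.77%. With HT_DL against ST_HL it was again 0 of 6, against 0% of all genes, and 0 of 5, against 1.04%. Of all embryo genes in HT_DL against ST_HL, 1004 had an unadjusted p below 0.05, and 55 passed in DESeq2 and 1 in voom. At an unadjusted p below 0.05, edgeR gave 1 member in each of the 2 embryo comparisons (PIF8b in ST_DL and PIF3 in HT_DL), 1 in endosperm ST_DL (PIF1a) and 3 in endosperm HT_DL (PIF1a, PIF1b and PIF3). In embryo HT_DL against ST_DL it gave 1 (PIF3). DESeq2 and voom were counted at an adjusted p below 0.05 only, where edgeR gave 0 members in these 5 comparisons. At that threshold they also gave 0, except for PIF1b in endosperm HT_DL against ST_HL, which passed in DESeq2 (-0.39, adjusted p = 0.00150).

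**Figure D2:**
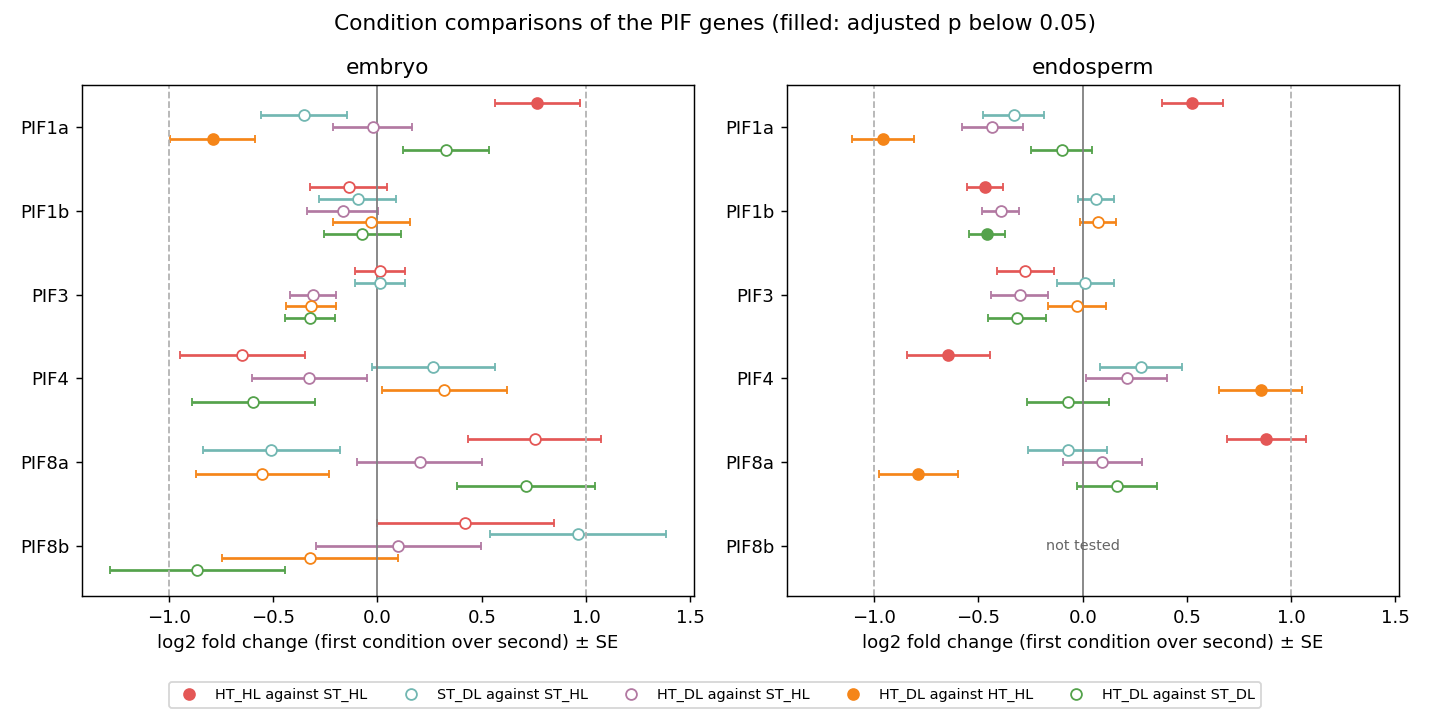
The log2 fold change (± SE, first condition over second) of each PIF gene is plotted for 5 comparisons of conditions, with a panel for each tissue and dashed lines at the DEG threshold of 1. Filled points passed the test: PIF1a rose in HT_HL and fell from HT_HL to HT_DL in both tissues, and in the endosperm PIF4 did the opposite while PIF8a went with PIF1a.

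PIF1a rose with heat in high light and fell when heat came with dim light, in the embryo as in the endosperm. In tomato fruit the protein is known as a repressor of the carotenoid gene PSY1, and its Arabidopsis counterpart PIF1 represses seed germination. In the embryo, the 3 HT_HL libraries had 154, 132 and 141 CPM, while the 4 ST_HL libraries had 110.3, 74.2, 60.7 and 94.0. The HT_DL libraries had 104, 59.0, 71.1 and 98.9 CPM, and those of ST_DL 60.8, 69.6 and 73.3. Every HT_HL embryo library was thus above every other embryo library, and the other 3 conditions overlapped.

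In the embryo, PIF1a was 1.70-fold higher in HT_HL than in ST_HL (0.77 ± 0.20, adjusted p = 0.0237, edgeR) and 1.73-fold lower in HT_DL than in HT_HL (-0.79 ± 0.20, adjusted p = 0.0238). The libraries that stood apart were the lowest of their groups. Without them PIF1a still passed both tests, at 0.52 (adjusted p = 0.0252) and -0.53 (adjusted p = 0.0341), a 1.44-fold difference each time. The first call was lost without ST_HL replicate 2 (0.72, adjusted p = 0.0588), ST_HL replicate 3 (0.64, adjusted p = 0.0563) or HT_HL replicate 1 (0.69, adjusted p = 0.118). The second was lost without HT_DL replicate 2 (-0.66, adjusted p = 0.0589), HT_DL replicate 3 (-0.73, adjusted p = 0.0646) or HT_HL replicate 1 (-0.71, adjusted p = 0.121).

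The other embryo comparisons of PIF1a gave -0.35 ± 0.21 for ST_DL and -0.02 ± 0.19 for HT_DL, both against ST_HL, and 0.33 ± 0.21 for HT_DL against ST_DL, and none passed. The order of the embryo means was HT_HL (142 ± 11.2 CPM, SD, n = 3), ST_HL (84.8 ± 21.8, n = 4), HT_DL (83.2 ± 21.6, n = 4) and ST_DL (67.9 ± 6.41, n = 3). Only the first step in this order, from HT_HL to ST_HL, passed the test. Without the libraries that stood apart, HT_DL was above ST_DL (0.59, adjusted p = 0.0328), ST_DL was at -0.59 against ST_HL (adjusted p = 0.0685) and HT_DL at -0.0019 against ST_HL.

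In the endosperm the 3 HT_HL libraries had 169, 132 and 189.8 CPM of PIF1a. ST_HL had 140.1, 109 and 94.8, ST_DL had 93.2, 89.2 and 91.1, and HT_DL had 83.0, 93.7 and 79.2 CPM. The highest ST_HL library lay above the lowest HT_HL library, whereas both dim-light groups lay below all high-light libraries. PIF1a was 1.44-fold higher in HT_HL than in ST_HL (0.53 ± 0.15, adjusted p = 0.0241) and 1.94-fold lower in HT_DL than in HT_HL (-0.96 ± 0.15, adjusted p = 0.00137). The latter was the largest change between conditions of any PIF gene that passed, and it passed under all 13 alternatives.

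The endosperm difference of PIF1a between HT_HL and ST_HL was less stable. It was lost without ST_HL replicate 2 (0.50, adjusted p = 0.0748), ST_HL replicate 3 (0.41, adjusted p = 0.0972), HT_HL replicate 1 (0.50, adjusted p = 0.0834) or HT_HL replicate 3 (0.41, adjusted p = 0.0719). Means in the endosperm ran from HT_HL (163 ± 29.5 CPM) through ST_HL (115 ± 23.1) and ST_DL (91.2 ± 2.02) to HT_DL (85.3 ± 7.53), each with SD and n = 3. No step among the last 3 passed the test: ST_DL was at -0.33 ± 0.15 (adjusted p = 0.248) and HT_DL at -0.43 ± 0.15 (adjusted p = 0.247) against ST_HL, and HT_DL at -0.10 ± 0.15 against ST_DL.

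PIF1b, the second homologue of the Arabidopsis germination repressor, did not go with PIF1a: in the endosperm it was lower at high temperature under either light. The endosperm libraries had 151, 149 and 171 CPM in ST_HL and 167, 175 and 152 in ST_DL. They had 121, 113 and 105 CPM in HT_HL and 120.2, 121 and 119.7 in HT_DL. All 6 libraries at standard temperature thus lay above all 6 at high temperature.

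PIF1b fell 1.38-fold from ST_HL to HT_HL (-0.47 ± 0.09, adjusted p = 0.00368) and 1.37-fold from ST_DL to HT_DL (-0.46 ± 0.09, adjusted p = 0.00706). Across both factors, HT_DL against ST_HL gave -0.39 ± 0.09 (adjusted p = 0.0614). Light gave 0.06 ± 0.09 at standard temperature and 0.07 ± 0.09 at high temperature, and the interaction of light and temperature was 0.01 ± 0.12. The heat difference in high light passed under all 13 alternatives, and no left-out library ended either heat call. In the embryo PIF1b lay at 52.1 ± 5.17 CPM in ST_HL, 50.3 ± 3.29 in ST_DL, 47.1 ± 17.9 in HT_HL and 46.3 ± 2.25 in HT_DL. None of the 5 embryo comparisons passed, with log2 fold changes from -0.17 to -0.03, and from -0.14 to 0.07 without the libraries that stood apart. Embryo HT_HL was the most variable group (40.5, 67.4 and 33.6 CPM), and without its replicate 2 PIF1b passed there too (-0.46, adjusted p = 0.0378).

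PIF3, the founding member of the family in Arabidopsis, where it acts in the greening of dark-grown seedlings, passed in no comparison of conditions in edgeR with all libraries. The embryo libraries had 58.0, 63.6, 44.9 and 56.6 CPM in ST_HL, 59.0, 60.02 and 54.8 in ST_DL, and 60.6, 50.2 and 55.9 in HT_HL. In HT_DL they had 49.0, 41.4, 45.4 and 43.9 CPM. All 4 HT_DL libraries were below all libraries of ST_DL and HT_HL, and 1 ST_HL library, replicate 3, was as low.

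In the embryo, HT_DL gave -0.31 ± 0.11 against ST_HL (adjusted p = 0.870), -0.32 ± 0.12 against HT_HL (adjusted p = 0.0857) and -0.32 ± 0.12 against ST_DL (adjusted p = 0.128). Without the libraries that stood apart these were -0.29, -0.30 and -0.31, and the comparison with HT_HL passed in voom (-0.40, adjusted p = 0.0168). HT_HL and ST_DL lay between 0.00 and 0.01 against ST_HL, with or without those libraries. The endosperm means of PIF3 were 96.6 ± 5.96 CPM in ST_HL and 97.5 ± 10.6 in ST_DL, and 79.3 ± 16.9 in HT_HL and 78.8 ± 5.93 in HT_DL. The heat differences were -0.27 ± 0.14 in high light (adjusted p = 0.166) and -0.31 ± 0.14 in dim light (adjusted p = 0.160). The first of these passed without HT_HL replicate 3 (98.4 CPM, beside 72.9 and 66.4), at -0.46 (adjusted p = 0.0137), and with all libraries in voom (-0.34, adjusted p = 0.0280).

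PIF4 had the opposite pattern to PIF1a in the endosperm: it was lowest in HT_HL. In Arabidopsis PIF4 is the main factor of elongation growth in warmth, and its transcript rises with temperature there. The endosperm libraries of HT_HL had 10.8, 18.7 and 12.6 CPM, against 18.4, 23.1 and 24.7 in ST_HL. ST_DL had 26.3, 24.5 and 29.9 CPM and HT_DL 23.7, 22.8 and 30.6. The 3 HT_HL libraries were below both dim-light groups, and 1 of them overlapped with ST_HL by a narrow margin.

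PIF4 fell 1.56-fold from ST_HL to HT_HL in the endosperm (-0.64 ± 0.20, adjusted p = 0.0368) and rose 1.81-fold from HT_HL to HT_DL (0.85 ± 0.20, adjusted p = 0.0104). The first call was lost without ST_HL replicate 2 (-0.60, adjusted p = 0.0850), ST_HL replicate 3 (-0.55, adjusted p = 0.126), HT_HL replicate 1 (-0.49, adjusted p = 0.147) or HT_HL replicate 3 (-0.57, adjusted p = 0.0943). The second was lost without HT_HL replicate 1 (0.70, adjusted p = 0.0502). The remaining endosperm comparisons of PIF4 were 0.28 ± 0.20 for ST_DL and 0.21 ± 0.20 for HT_DL against ST_HL, and -0.07 ± 0.20 for HT_DL against ST_DL.

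In the embryo the same gene varied more between replicates and passed in no comparison in edgeR without a replicate block. It had 17.9, 26.8, 33.6 and 25.2 CPM in ST_HL, 26.2, 30.7 and 39.3 in ST_DL, 11.7, 23.8 and 13.8 in HT_HL, and 15.2, 29.7, 19.9 and 17.2 in HT_DL. HT_HL gave -0.65 ± 0.30 against ST_HL (adjusted p = 0.136), nearly the endosperm value with a larger error. This difference passed in voom (-0.74, adjusted p = 0.0295) and with a replicate block (-0.71, adjusted p = 0.0315), and without the libraries that stood apart it was -0.35 (adjusted p = 0.423). HT_DL was at 0.32 ± 0.30 against HT_HL and at -0.59 ± 0.29 against ST_DL (adjusted p = 0.217). These were, without the libraries that stood apart, -0.06 (adjusted p = 0.911), of the other sign, and -0.98 (adjusted p = 0.0907). Against ST_HL, ST_DL gave 0.27 ± 0.30 and HT_DL -0.33 ± 0.28 with all libraries, and 0.57 and -0.40 without those 4.

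PIF8a rose with heat in high light in the endosperm and fell from HT_HL to HT_DL, as PIF1a did. Its Arabidopsis homologue PIF8 acts in responses to far-red light through phytochrome A. The endosperm libraries had 82.9, 74.5 and 62.9 CPM in HT_HL, against 42.8, 39.3 and 38.6 in ST_HL. ST_DL had 33.7, 37.4 and 44.0 CPM and HT_DL 53.5, 46.3 and 29.3, so every HT_HL library was above all others.

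PIF8a was 1.84-fold higher in HT_HL than in ST_HL (0.88 ± 0.19, adjusted p = 0.00747), which passed under all 13 alternatives. It was 1.73-fold lower in HT_DL than in HT_HL (-0.79 ± 0.19, adjusted p = 0.0122), and this call was lost without HT_HL replicate 1 (-0.69, adjusted p = 0.0570). Against ST_HL, dim light gave -0.07 ± 0.19 and the combined stress 0.09 ± 0.19, and heat in dim light gave 0.17 ± 0.19. In the embryo PIF8a was low, at 10.5, 8.31, 5.52 and 10.6 CPM in ST_HL and 4.71, 5.65 and 8.44 in ST_DL. It reached 15.8, 12.03 and 15.7 CPM in HT_HL and 16.3, 6.84, 6.52 and 10.5 in HT_DL.

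The embryo difference of PIF8a between HT_HL and ST_HL was 0.75 ± 0.32 and did not pass (adjusted p = 0.108), although the 2 groups did not overlap. It passed in voom (0.69, adjusted p = 0.0278), and without the libraries that stood apart it was 0.51 (adjusted p = 0.218). HT_DL against ST_DL gave 0.71 ± 0.33 (adjusted p = 0.193), and without those libraries 1.11 (adjusted p = 0.0470), which would make PIF8a a DEG there. HT_DL against HT_HL gave -0.55 ± 0.32 (adjusted p = 0.229), and passed without HT_DL replicate 1 (-0.88, adjusted p = 0.0497). It was -0.15 (adjusted p = 0.734) without the libraries that stood apart. Against ST_HL, ST_DL gave -0.51 ± 0.33 and HT_DL 0.20 ± 0.30 with all libraries, and -0.75 and 0.35 without those 4.

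PIF8b was a transcript of the embryo. Its embryo libraries had 7.98, 3.97, 3.09 and 3.88 CPM in ST_HL, 6.66, 8.74 and 12.8 in ST_DL, 7.28, 5.76 and 5.66 in HT_HL, and 9.57, 2.50, 3.43 and 4.78 in HT_DL. The ST_DL group had the highest mean (9.40 ± 3.13 CPM, SD, n = 3), but 1 ST_HL library lay within its range. ST_DL against ST_HL gave 0.96 ± 0.42 (adjusted p = 0.195), and the other 4 embryo comparisons lay between -0.86 and 0.42 and did not pass. Without the libraries that stood apart, ST_DL against ST_HL was 0.67 (adjusted p = 0.487) and the others lay between -0.38 and 0.29. In the endosperm the counts were 2, 0 and 0 in ST_HL, 1, 1 and 0 in ST_DL, 0, 1 and 1 in HT_HL, and 1 in each HT_DL library.

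PIF1b, PIF3 and PIF8a differed more between the 2 tissues than between conditions, whereas PIF1a and PIF4 differed more between conditions. Of the 5 members that passed the low-count filter in both tissues, 3 passed the test between embryo and endosperm in each of the 4 conditions, and 2 were DEGs, PIF1b and PIF8a, both lower in the embryo. PIF8b, higher in the embryo, entered this comparison through its embryo counts alone, so its difference is a description and is not counted here. Among all 21153 genes of the fit over both tissues, 55.1% passed and 31.1% were DEGs in ST_HL, and 50.6% and 29.6% in ST_DL. The shares were 52.4% and 31.2% in HT_HL, and 55.9% and 32.2% in HT_DL, so tissue differences were common. These genes were not limited to those that passed the filter in both tissues, for which no share was computed. The shares are therefore not over the same kind of genes as the counts out of 5 members. PIF1b and PIF8a were called in each condition whichever replicate was left out.

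PIF1b was lower in the embryo than in the endosperm 3.02-fold in ST_HL (-1.59 ± 0.15, adjusted p = 1.17e-08), 3.28-fold in ST_DL (-1.71 ± 0.16, adjusted p = 2.11e-08), 2.39-fold in HT_HL (-1.26 ± 0.16, adjusted p = 1.30e-06) and 2.60-fold in HT_DL (-1.38 ± 0.15, adjusted p = 9.66e-08). Its 14 embryo libraries reached at most 67.4 CPM and its 12 endosperm libraries had at least 105. PIF8a was lower in the embryo 4.61-fold in ST_HL (-2.20 ± 0.28), 6.12-fold in ST_DL (-2.61 ± 0.32), 5.06-fold in HT_HL (-2.34 ± 0.31) and 4.29-fold in HT_DL (-2.10 ± 0.28), with adjusted p-values of at most 1.72e-06. Its embryo range of 4.71 to 16.3 CPM lay below the endosperm range of 29.3 to 82.9 CPM. Without the embryo libraries that stood apart, the ST_HL and HT_DL differences were -1.74 and -1.41 for PIF1b and -1.95 and -1.68 for PIF8a, and all of them passed. Thus PIF8a and PIF8b, which carry the same number in their names, had opposite tissue distributions.

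PIF8b counts summed over the libraries of a group were 428 in the embryo against 2 in the endosperm in ST_HL, 548 against 2 in ST_DL, 446 against 2 in HT_HL and 451 against 3 in HT_DL. Scaled by the TMM-normalized library sizes, this is a ratio of 137 (95% Poisson interval 37.6 to 1130), 264 (72.6 to 2180), 183 (50.4 to 1520) and 99.0 (33.7 to 482). The intervals cover counting error only and overlap between conditions.

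PIF3 was lower in the embryo by less than the DEG threshold: 1.73-fold in ST_HL (-0.79 ± 0.12), 1.68-fold in ST_DL (-0.75 ± 0.13), 1.43-fold in HT_HL (-0.51 ± 0.13) and 1.75-fold in HT_DL (-0.81 ± 0.12), with adjusted p-values from 1.11e-05 to 0.00288. All embryo libraries were at or below 63.6 CPM and all endosperm libraries at or above 66.4. Without the libraries that stood apart, PIF3 was at -0.77 in ST_HL and -0.76 in HT_DL and passed in both.

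PIF1a and PIF4 passed in no condition. PIF1a gave -0.44 ± 0.19 in ST_HL (adjusted p = 0.0599), -0.43 ± 0.21 in ST_DL (adjusted p = 0.0948), -0.20 ± 0.21 in HT_HL and -0.04 ± 0.19 in HT_DL. In ST_HL PIF1a passed under 6 of 15 alternatives, among them a replicate block (-0.52, adjusted p = 0.0127) and, without a block, DESeq2 (-0.48, adjusted p = 0.0249). Without the libraries that stood apart it was at -0.18 (adjusted p = 0.308). In ST_DL it passed under 6 of 14 alternatives, among them the fit without those libraries (-0.44, adjusted p = 0.00981). PIF4 gave 0.23 ± 0.26, 0.25 ± 0.28, 0.23 ± 0.28 and -0.33 ± 0.26 in ST_HL, ST_DL, HT_HL and HT_DL. The last of these passed without the libraries that stood apart (-0.67, adjusted p = 0.0443), where ST_HL was at -0.06 and PIF1a in HT_DL at 0.25 (adjusted p = 0.161).

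**Figure D3:**
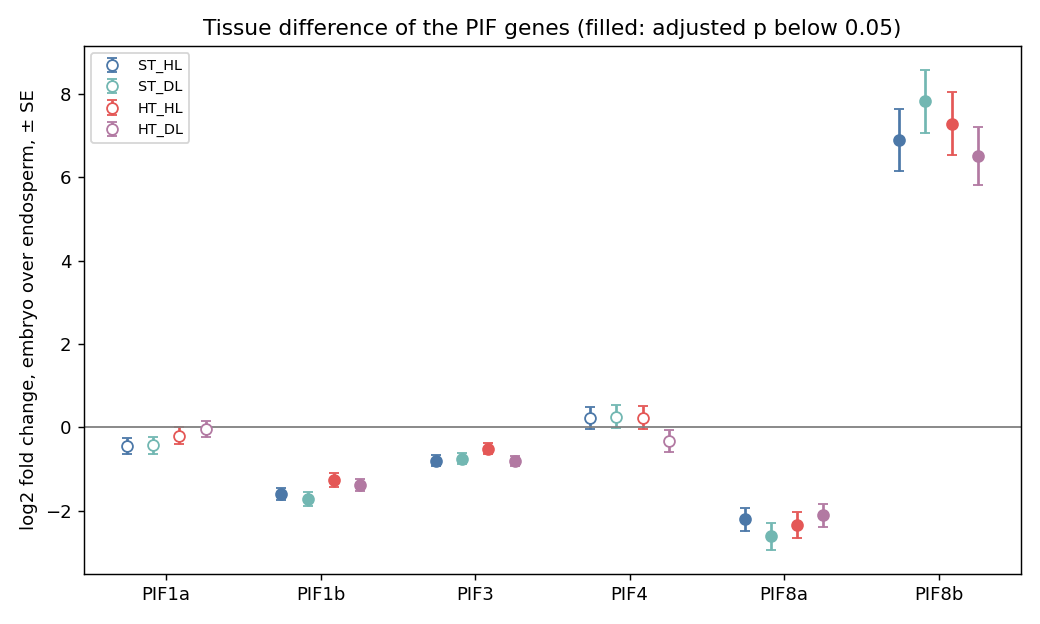
The log2 fold change of embryo over endosperm (± SE, vertical axis) is plotted for each PIF gene in the 4 conditions, with filled points where the adjusted p was below 0.05. PIF1b, PIF3 and PIF8a lay below 0 in all 4 conditions and PIF8b far above it, where the fitted values of 6.50 to 7.82 rest on 0 to 2 endosperm counts a library and are neither bounds nor a test.

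Whether the effect of a condition differed between the tissues was tested as an interaction, and no PIF gene passed. The count was 0 of 6 for HT_HL, against 1.73% of all genes, and 0 of 6 for ST_DL, against 0.0378%. For HT_DL it was 0 of 6, against 0.00945%. The 6 include PIF8b, with 0 to 2 counts in each endosperm library. The SE of its interaction was 1.51 for HT_HL, 1.54 for ST_DL and 1.17 for HT_DL. With so few counts its interaction could not be decided, so the result rests on the other members. No member had an unadjusted p below 0.05 in these 3 tests in edgeR, and none had an adjusted p below 0.05 in DESeq2 or voom. PIF1b, which passed with HT_HL in the endosperm and not in the embryo, had an interaction of 0.33 ± 0.22 (adjusted p = 0.456). PIF4 in HT_HL was at 0.00 ± 0.37 and PIF8a at -0.13 ± 0.41, and PIF1a at 0.24 ± 0.28. Without the libraries that stood apart the HT_HL values were 0.49 for PIF1b, 0.29 for PIF4, -0.39 for PIF8a and -0.01 for PIF1a, and none passed.

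Whether the response to dim light differed between the temperatures was tested in the same way in each tissue, and again no PIF gene passed. In the embryo 3.27% of all genes passed and 1.76% were DEGs, in the endosperm 5.14%. The embryo share was set by single libraries: 629 genes passed with all of them, 0 without ST_DL replicate 1 or 3, 1 without HT_HL replicate 1, 3731 without HT_DL replicate 1 and 2 without the 4 that stood apart. Leaving out any embryo library other than HT_HL replicates 2 and 3 moved this count by over 1.5 times. The largest endosperm values were those of PIF8a (-0.72 ± 0.27, adjusted p = 0.134) and PIF1a (-0.63 ± 0.21, adjusted p = 0.0982), both with an unadjusted p below 0.05. Both passed in voom with quality weights (-0.79, adjusted p = 0.0252, and -0.62, adjusted p = 0.0390), and no member passed in DESeq2. PIF1a also passed without HT_HL replicate 2 (-0.76, adjusted p = 0.0377) and PIF8a without HT_DL replicate 1 (-0.92, adjusted p = 0.0486). In the embryo no member had an unadjusted p below 0.05 in edgeR, and none had an adjusted p below 0.05 in DESeq2 or voom. The largest value there was -1.28 ± 0.60 for PIF8b (adjusted p = 0.150), which passed without HT_DL replicate 1 (-1.78, adjusted p = 0.0352) and was -0.50 without the libraries that stood apart (adjusted p = 0.696). Without those libraries PIF1a went from -0.44 to 0.07, PIF4 from 0.05 to -0.63 and PIF8a from -0.04 to 0.60, and none of them passed.

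Across single libraries, PIF1a and PIF4 ran in opposite directions in both tissues. The Pearson correlation of their log2 CPM was -0.79 over the 14 embryo libraries (Spearman -0.80) and -0.93 over the 12 endosperm libraries (Spearman -0.85). Taken as deviations from the mean of each condition it was -0.71 and -0.79, so the relation was also seen among replicates of a condition. In embryo ST_HL and HT_DL these deviations include the gap between the libraries that stood apart and the others. Without the 2 libraries farthest from the median of PIF1a it was -0.63 (embryo) and -0.86 (endosperm). These values describe libraries that share tissue, scaling and depth.

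PIF1a and PIF8a ran together, at 0.91 in the embryo (Spearman 0.89) and 0.72 in the endosperm (Spearman 0.60). Among replicates of a condition the correlation was 0.87 for embryo but 0.12 for endosperm libraries. Without the 2 libraries farthest from the median of PIF1a it was 0.87 and 0.50. In the embryo the 4 libraries that stood apart lay below the median of PIF1a (84.1 CPM) and of PIF8a (9.46 CPM), and their part in the correlation was not tested. PIF4 and PIF8a correlated at -0.75 in the embryo and -0.82 in the endosperm. PIF1a and PIF1b correlated at -0.38 and -0.44, and PIF1a and PIF3 at 0.26 and -0.02.

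**Figure D4:**
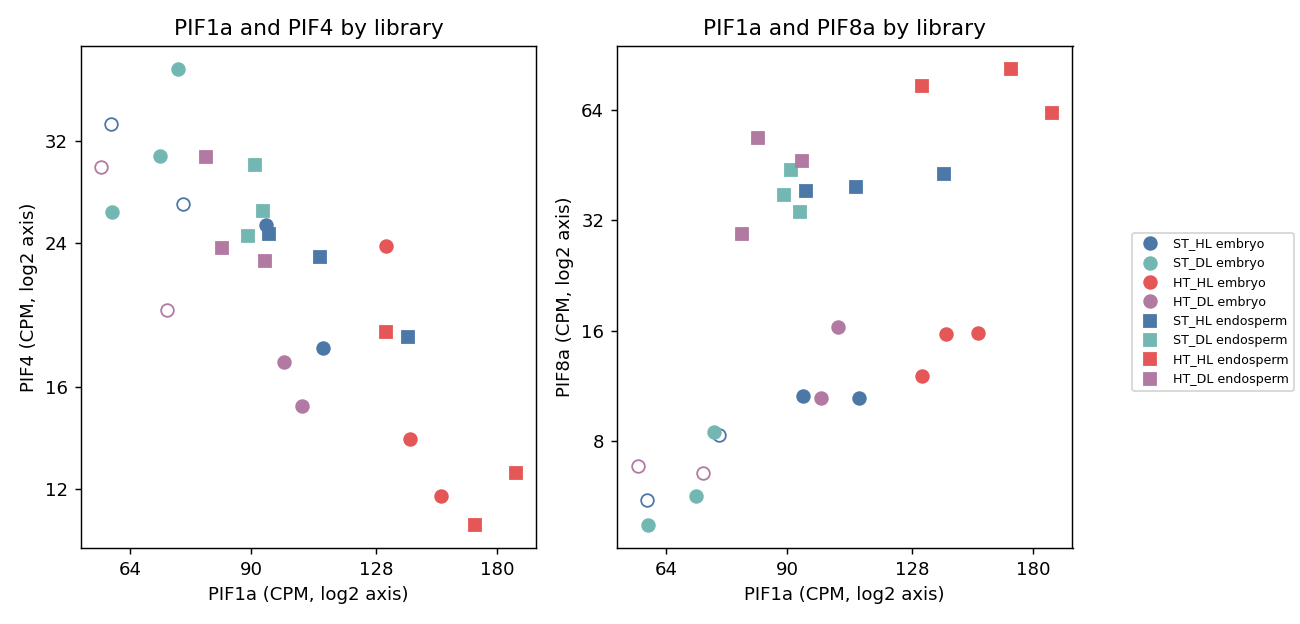
Each point is 1 library, with PIF1a on the horizontal axis and PIF4 (left) or PIF8a (right) on the vertical axis, in CPM on log2 axes; circles are embryo, squares endosperm, and open circles the 4 embryo libraries that stood apart. PIF4 was lower where PIF1a was higher in both tissues, whereas PIF8a was higher where PIF1a was higher, with the endosperm libraries apart from and above those of the embryo.

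Libraries of embryo and endosperm with the same condition and replicate number could be set side by side in 12 pairs. Deviations of PIF4 from the condition mean had the same sign in 11 of 12 pairs (r = 0.66), those of PIF8a in 9 (r = 0.65), of PIF1b in 9 (r = 0.27), of PIF3 in 8 (r = 0.28) and of PIF1a in 6 (r = 0.42). Replicate 2 of HT_HL had the highest PIF4 of its group in both tissues, and replicate 1 of ST_HL the highest PIF1a with the lowest PIF4 in both. The sources used here do not say what libraries with the same number share. The 12 pairs are not independent, since deviations from the mean of a condition are tied to each other. In embryo ST_HL and HT_DL the deviations also include the gap between the libraries that stood apart and the others. No all-gene share stands beside these sign counts.

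Among 17347 genes compared over the 26 libraries as deviations from the mean of the tissue, the gene most like PIF1a was Solyc08g080220 (r = 0.95). PIF1a had 48 genes above 0.9, PIF8a had 6, and PIF4 and PIF1b had 0. The gene most like PIF8a was Solyc06g063030 (r = 0.93). For PIF4 and PIF1b the highest correlations were 0.90 and 0.80. These genes carry no description in the sources used here, and they were looked up after the values of the PIF genes were known.

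Genes around the PIFs were described from 3 lists. For red and far-red light phototransduction, only a part of the study's GO annotation was used, so the list may not hold every gene. In that part 18 identifiers carried the annotation, of which 17 were in the table and 5 passed the low-count filter in each tissue. None of them was a DEG between conditions in either tissue, but in embryo HT_HL against ST_HL 3 of 5 passed the test, against 17.8% of all genes, and all were higher: Solyc01g056340 (0.64 ± 0.13, adjusted p = 0.00730), Solyc01g008840 (0.59 ± 0.12, adjusted p = 0.00734) and Solyc01g005840 (0.56 ± 0.15, adjusted p = 0.0228). The median of the list was 0.56 there, beside -0.07 for all genes. These genes were named after their values were seen. In HT_DL against HT_HL 2 of 5 passed in the embryo, Solyc01g056340 and Solyc01g008840, both lower, against 14.6% of all genes. In the endosperm 2 of 5 passed in HT_HL against ST_HL, higher (Solyc01g005840 and Solyc01g056340), against 23.8% of all genes. There 1 of 5 passed in HT_DL against HT_HL, lower (Solyc01g005840), against 24.7%. In HT_DL against ST_DL it was also 1 of 5, lower (Solyc01g009070), against 12.6%. Fits of the list without the libraries that stood apart were not made. In the part of the annotation used, the identifier given as a red light photoreceptor was Solyc01g059870. Its condition means lay between 22.5 and 24.6 CPM in the embryo and between 26.6 and 30.3 CPM in the endosperm. The log2 fold changes of this gene between conditions lay between -0.17 and 0.13. Its level was lower in the embryo than in the endosperm in ST_HL (-0.43 ± 0.15, adjusted p = 0.0191), where 55.1% of all genes passed. The tissue difference of this gene did not pass in ST_DL (-0.21, adjusted p = 0.296), HT_HL (-0.13, adjusted p = 0.520) or HT_DL (-0.33, adjusted p = 0.0645). Of 14 identifiers for seed germination in the same part of the annotation, 3 passed the filter, and none passed the test between conditions.

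Light-harvesting proteins, which bind chlorophyll and whose genes PIFs hold back in dark-grown Arabidopsis seedlings, had 30 identifiers, of which 8 passed the filter in each tissue. In the embryo their median log2 fold change was -0.80 in HT_HL and -0.99 in ST_DL against ST_HL, where the medians of all genes were -0.07 and -0.08. Both medians are against ST_HL, whose replicates 2 and 3 stood apart, and the list was not summarised without them. In HT_HL 1 of 8 was a DEG, lower, against 4.84% of all genes. In ST_DL 0 of 8 were, against 113 of 19253 genes, and in HT_DL 0 of 8, where no gene was a DEG. This gene, Solyc03g005760 (LHCb1/2/3), had 0.19, 8.47, 5.64 and 0.14 CPM in ST_HL and 0 to 0.09 in HT_HL, a difference of -5.90 ± 1.73 (adjusted p = 0.0360). The 2 high ST_HL libraries were those that stood apart. In ST_DL this gene had 0, 0.05 and 0.10 CPM, and in HT_DL 0.18, 1.47, 1.57 and 0.10. Its interaction of light and temperature was 9.84 ± 2.43 (adjusted p = 0.0494). In HT_DL too, the higher values were those of replicates 2 and 3, which stood apart. The interaction was not tested without the libraries that stood apart, so it is not separated from them. Without ST_HL replicate 2 the HT_HL difference was -5.02 (adjusted p = 0.0774), without ST_HL replicate 3 it was -5.62 (adjusted p = 0.0673), and leaving out any HT_HL library also ended the call (adjusted p from 0.0769 to 0.152).

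In the endosperm the light-harvesting list had medians of 0.08 in HT_HL and -0.09 in ST_DL against ST_HL, beside 0.00 and -0.01 for all genes. Solyc12g011280 (LHCa3) had 0.89, 0.66 and 0.85 CPM in ST_HL, 3.04, 3.49 and 2.46 in HT_HL, 0.37, 0.16 and 0.22 in ST_DL, and 1.43, 1.11 and 1.36 in HT_DL. Of the list, 1 gene was a DEG upwards and 1 downwards in HT_HL, against 5.85% of all genes, and 1 downwards in ST_DL. LHCa3 was higher in HT_HL (1.91 ± 0.27, adjusted p = 0.00108) and lower in ST_DL (-1.65 ± 0.33, adjusted p = 0.0200), where 1.14% of all genes were DEGs. The call in ST_DL was lost without any 1 of 4 libraries, ST_DL replicates 2 (-1.42) and 3 (-1.56) and ST_HL replicates 1 (-1.58) and 3 (-1.59), at adjusted p from 0.0655 to 0.101.

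Another light-harvesting gene, Solyc02g070940 (LHCb1/2/3), was lower in HT_HL than in ST_HL in the endosperm (-4.15 ± 1.12, adjusted p = 0.0205), with 0.52, 5.18 and 1.95 CPM in ST_HL and 0.20, 0 and 0.22 in HT_HL. The call was lost without ST_HL replicate 2 (-3.10, adjusted p = 0.0755), HT_HL replicate 1 (-4.52, adjusted p = 0.0683) or HT_HL replicate 2 (-3.55, adjusted p = 0.0606). Reads of the LHCb genes, a multigene family of near-identical members, may be divided among their identifiers, so these 2 genes are uncertain. Under heat, LHCa3 was lower in HT_DL than in HT_HL (-1.22 ± 0.26, adjusted p = 0.00713) and higher in HT_DL than in ST_DL (2.34 ± 0.32, adjusted p = 0.00146).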

How the data were processed

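The assay was RNA sequencing of dissected embryos and endosperms of mature tomato seeds. The authors quantified the reads with Salmon 0.14.1 on the transcripts of tomato build SL4.0 (annotation ITAG4.0) and deposited expected counts per transcript, not normalized. Of the values, 10.5% were not whole, and they were rounded. Salmon divides reads among similar transcripts.

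Models with a coefficient for every condition were fitted within tissues and over both tissues, in edgeR 4.0.16 under R 4.3.3 (TMM, quasi-likelihood F-test). The filterByExpr limits were 10 (count) and 15 (total). The fits held 19253 (embryo), 19185 (endosperm) and 21153 genes (both), with a common biological coefficient of variation of 0.365, 0.219 and 0.306. Depth differs little, so spread between replicates limits precision more than counting. The steps were tested on simulated data in which 200 genes changed 4-fold. The fits recovered 67% to 86.5% of these genes, with 4 to 7 false calls. Smaller changes, such as those of the PIF genes between conditions, and libraries that stand apart were not simulated. Principal components and correlations used log2 CPM, prior count 2.

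Alternative settings were RLE size factors, no filter, no fold threshold, DESeq2 1.42.0, voom with quality weights (limma 3.58.1), a replicate block, the 2 groups alone, leaving out the embryo libraries that stood apart, and leaving out each replicate. Counts by adjusted p alone, and the genes most alike, were added after seeing the data, because no member passed the fold threshold within a tissue.

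All 8 members were named in every comparison. Of each other list, the DEGs with the largest and smallest fold change against ST_HL were named, with the photoreceptor. LHCa3 under heat was added after its values were seen. The members and lists were chosen with earlier results of these data known. Whether replicate numbers pair libraries was checked from deviations around the group means: every same-number pair correlated above 0.1 in embryo HT_DL against ST_HL (0.751 to 0.833, where libraries with different numbers reached 0.85) and between tissues in ST_HL (0.102 to 0.437) and HT_HL (0.129 to 0.346). Between tissues, libraries with different numbers reached 0.377 in ST_HL and 0.0547 in HT_HL. Elsewhere same-number pairs went down to -0.357 (tissues in HT_DL) and -0.63 (endosperm HT_DL against ST_HL). The labels do not say whether the numbers pair libraries. The PIF names are those of the member list, and the annotation used here does not name them. No sequences or gene lengths of these identifiers were used here.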

Additional observations from a re-analysis of the deposited data

How the results depend on the processing

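The differences of PIF1b, PIF3 and PIF8a between embryo and endosperm kept direction and significance under all alternatives. None of the changes of PIF genes between conditions that passed reversed. Within tissues, PIF DEG counts were 0 and became, by adjusted p alone, 1 in embryo HT_HL against ST_HL, 1 in embryo HT_DL against HT_HL, 4 in endosperm HT_HL against ST_HL, 3 in endosperm HT_DL against HT_HL and 1 in endosperm HT_DL against ST_DL. Leaving out 1 replicate gave 0 to 1 DEGs for the embryo interaction of light and temperature and 0 to 2 for endosperm HT_DL against HT_HL. Without the embryo libraries that stood apart, HT_DL against ST_DL had 1 DEG and 2 members that passed.

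Members that passed in embryo HT_HL against ST_HL numbered 3 in voom, 2 with a replicate block, 0 with the 2 groups alone and a block, and 0 to 2 without 1 replicate. In embryo HT_DL against HT_HL they numbered 2 in voom, 0 with the 2 groups alone, 0 with a block added to that, and 0 to 2 without 1 replicate. The embryo interaction had 0 to 1 without 1 replicate. In the endosperm, HT_HL against ST_HL had 2 with the 2 groups alone and 2 to 4 without 1 replicate, HT_DL against HT_HL had 1 to 3, and the interaction had 2 in voom and 0 to 1. HT_DL against ST_HL had 1 in DESeq2, and HT_DL against ST_DL had 0 with the 2 groups alone and a block. The cause was not tested. Other than in the comparisons named, the replicate block changed no count of PIF genes by over 1.5 times.

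The numbers of all genes that passed moved more. With a replicate block they went from 3418 to 5497 in embryo HT_HL against ST_HL, 390 to 2516 in ST_DL against ST_HL, 2810 to 4727 in HT_DL against HT_HL, 855 to 2774 in HT_DL against ST_DL and 629 to 4906 for the interaction. In the endosperm they went from 723 to 404 (ST_DL), 199 to 87 (HT_DL against ST_HL), 2412 to 1604 (HT_DL against ST_DL) and 987 to 299 (interaction), and for tissue by HT_HL from 367 to 692. Without 1 replicate, the embryo counts in the same order ran from 781 to 3740, 38 to 309, 474 to 3834, 160 to 1055 and 0 to 3731. Those of the endosperm ran from 2315 to 4929 (HT_HL), 173 to 329, 4 to 156, 2467 to 4850 (HT_DL against HT_HL), 1085 to 1953 and 103 to 1488.

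With 3 or 4 libraries a group, the SE of a log2 fold change between 2 conditions was 0.11 to 0.42 for members in the embryo. For the embryo interaction of light and temperature it reached 0.60 (PIF8b). Differences larger than their SE also did not pass in edgeR, such as PIF3 in embryo HT_DL against ST_HL (-0.31 ± 0.11, adjusted p = 0.870). A member that did not pass is therefore not shown to be unchanged.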
